A study of Mus musculus with 4 samples.

Results

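Prostaglandins act inside the preovulatory follicle, and the 10 genes described here cover their synthesis, their receptors and their breakdown: the cyclooxygenases Ptgs1 and Ptgs2, the terminal synthases Ptges, Ptges2, Ptges3 and Ptgds, the receptors Ptger2, Ptger4 and Ptgfr, and the degrading dehydrogenase Hpgd. They were taken by gene name from the 25239 genes listed in an expression table of cultured mouse granulosa cells (GCs). Total RNA of 4 libraries was sequenced, 2 from control cells and 2 from cells treated with HDACi 4b, a synthetic inhibitor of the histone deacetylases HDAC1 and HDAC3. All the libraries are labelled as ovarian GCs of C57BL/6 mice at postnatal day 24, and the series design gives the cells as wild type and cultured in vitro. The study's methods describe cultured mural GCs as taken from large antral follicles of mice primed with PMSG, so control and treated cells alike would have seen this hormone. The methods describe overnight treatment of mural GCs with HDACi 4b ahead of coculture with oocyte complexes, and do not state whether the sequenced cells were treated in the same way or how many animals were pooled.

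Prostaglandin synthesis begins when a phospholipase frees arachidonate from membranes. A cyclooxygenase turns it into prostaglandin H2, and a terminal synthase then makes prostaglandin E2, D2 or F2α, prostacyclin or thromboxane. In the ovary the LH surge switches on Ptgs2 in GCs, and prostaglandin E2 acts through the receptor EP2, the product of Ptger2, on cumulus cells. Mice without Ptgs2 or Ptger2 ovulate poorly and have defective cumulus expansion. Ptgfr, the receptor of prostaglandin F2α, is best known from luteal cells, where it takes part in the regression of the corpus luteum.

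The deposited values are FPKM, read counts scaled by gene length and by the library's total, so levels can be compared between genes. Library totals were 16438728 and 17665107 reads for the controls, and 16215581 and 15951875 reads for the treated libraries. In limma on log2(FPKM + 1), over the 12054 genes whose mean reached 1 FPKM, 60.5% of genes passed an adjusted p of 0.05, with 22.4% higher after HDACi 4b and 38.1% lower. The median log2 difference over these genes was -0.15. Scaling by median ratios, which centres this median by construction, moved it to -0.00181. Whether libraries of 1 group are separate cultures is not labelled, so the p-values cover only library-to-library spread, possibly technical. Of the 10 GC markers, all were above 0 in all libraries, and their summed level was 1640 and 1630 FPKM in controls and 717 and 853 FPKM after treatment, most of it Inha. They did not move together. Of 9 tested, 4 fell (Foxl2, Inha, Inhba and Gata4), Fshr rose, and the other 4, Nr5a1 and Amh among them, did not pass. Cyp19a1, under the limit and not tested, was scarce in all libraries. It measured 0.592 and 0.138 FPKM in the controls and 0.0682 and 0.139 FPKM after treatment, and the groups overlapped. The smooth muscle markers summed to 166 and 251 FPKM in controls and 25.5 and 44.6 FPKM after treatment, almost all of it Acta2. Acta2 and Myh11 fell, whereas Tagln and Des, both under the 1 FPKM limit, overlapped between the groups. In RNA of whole cultures, fewer cells of a type and less RNA per cell cannot be told apart.

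Both cyclooxygenases and Ptges, the inducible synthase of prostaglandin E2, rose after HDACi 4b, whereas Ptger2 fell 30.6-fold and Ptgds fell 2.36-fold in mean FPKM. Ptges3 rose by less, and Ptges2, Ptgfr and Hpgd did not pass the test. Of the 9 genes tested, 4 were called higher, against 22.4% of all genes tested, and 2 were called lower, against 38.1%. These counts are no evidence on the group as a whole, because Ptgs1 and Ptgs2 passed the 1 FPKM limit only through the treated libraries and Ptger2 only through the controls. With a log2 difference of at least 1 in addition, 3 were called higher (Ptgs1, Ptgs2 and Ptges), against 7.54% of all genes tested, and 2 lower (Ptger2 and Ptgds), against 6.7%. Ptger4 stayed under the limit. Treated and control libraries did not overlap in 8 of the 9 genes tested, 4 higher and 4 lower, against 83.1% of all genes tested.

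**Figure D1:**
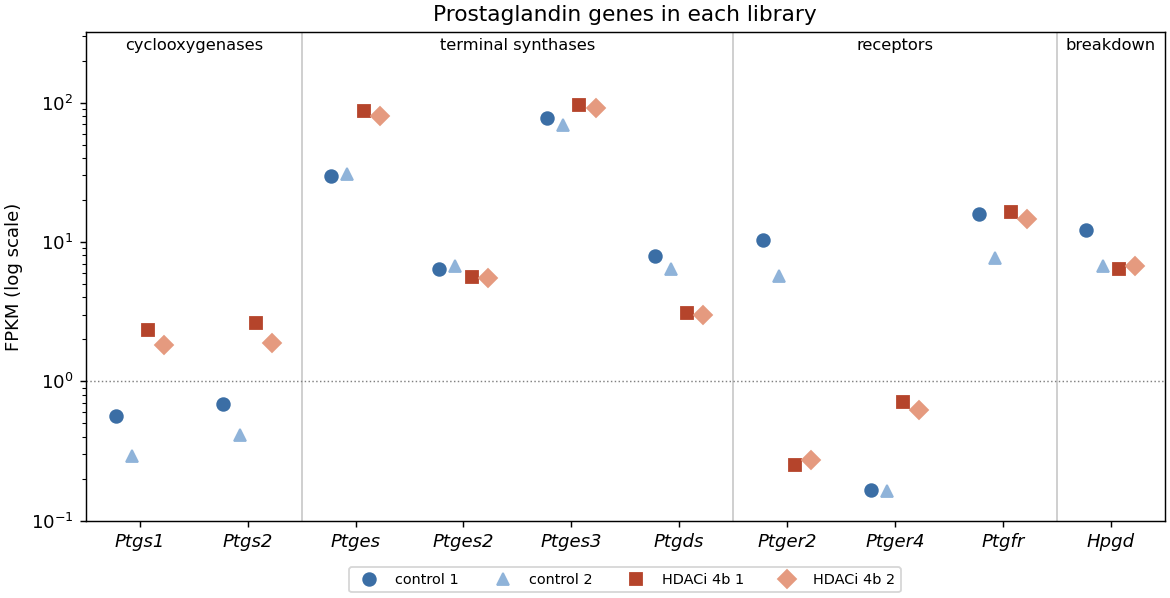
FPKM of the 10 prostaglandin genes in each library, on a log scale, grouped by role, with 1 symbol per library and a dotted line at 1 FPKM. Both treated libraries lay above both controls for Ptgs1, Ptgs2, Ptges, Ptges3 and Ptger4 and below them for Ptges2, Ptgds, Ptger2 and Hpgd, whereas Ptgfr overlapped.

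The promoters of Ptgs2, Ptgs1, Ptges and Ptger2 are shown because these were the 4 tested genes with the largest log2 differences. All 10 genes matched a RefSeq promoter window of 300 bases, from 250 before to 50 after the annotated start (build GRCm38.p6). Capitals mark matches on either strand to the E-box (CACGTG), the first bases of the cyclic AMP response element (TGACG), the GC box (GGGCGG), the TATA box (TATAAA) or the CCAAT box. The windows lie at chr1:150099781-150100080 (plus strand, Ptgs2), chr2:36230176-36230475 (plus strand, Ptgs1), chr2:30903248-30903547 (minus strand, Ptges) and chr14:44987861-44988160 (plus strand, Ptger2), and each is printed 5′ to 3′ along its gene.
Ptgs2: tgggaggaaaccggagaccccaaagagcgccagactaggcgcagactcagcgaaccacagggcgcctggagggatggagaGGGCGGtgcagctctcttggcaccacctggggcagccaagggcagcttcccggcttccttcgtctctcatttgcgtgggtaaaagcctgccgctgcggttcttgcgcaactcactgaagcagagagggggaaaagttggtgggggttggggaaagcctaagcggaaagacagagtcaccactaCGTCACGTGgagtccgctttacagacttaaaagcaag
Ptgs1: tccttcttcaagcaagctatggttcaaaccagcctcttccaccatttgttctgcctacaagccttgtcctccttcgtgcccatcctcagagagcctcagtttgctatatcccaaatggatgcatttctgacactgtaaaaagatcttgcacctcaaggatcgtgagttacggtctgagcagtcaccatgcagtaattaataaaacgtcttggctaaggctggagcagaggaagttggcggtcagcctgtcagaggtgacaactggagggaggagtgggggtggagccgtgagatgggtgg
Ptges: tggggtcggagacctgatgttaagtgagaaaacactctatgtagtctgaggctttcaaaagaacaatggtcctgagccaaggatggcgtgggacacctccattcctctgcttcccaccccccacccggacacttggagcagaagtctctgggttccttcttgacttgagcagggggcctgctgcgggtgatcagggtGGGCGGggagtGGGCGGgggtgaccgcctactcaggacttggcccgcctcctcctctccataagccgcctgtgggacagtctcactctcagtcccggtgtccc
Ptger2: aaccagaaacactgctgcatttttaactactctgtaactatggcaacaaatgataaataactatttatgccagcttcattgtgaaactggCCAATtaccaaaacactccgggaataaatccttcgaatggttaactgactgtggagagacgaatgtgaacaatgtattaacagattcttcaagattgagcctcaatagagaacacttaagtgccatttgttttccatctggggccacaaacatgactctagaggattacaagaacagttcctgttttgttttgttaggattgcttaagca

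The Ptgs2 window held an E-box at bases 17 to 22, counted from 1 at the start, and a TGACG match on the opposite strand at bases 14 to 18 that overlaps it, so the capitals run together there. In rat GCs an E-box that binds the factors USF1 and USF2 is known to drive Ptgs2, and whether the match seen here is that element was not tested. E-boxes occurred in 7.15% of all 32851 windows and in 2 of the 10 genes, Ptgs2 and Ptges2. The TGACG motif occurred in 20.8% of windows and also in 2 of the 10, Ptgs2 and Ptges3. Ptges held GC boxes at bases -53 to -48 and -42 to -37 from its start, and GC boxes were found in 6 of the 10 genes against 35.7% of windows. Ptgs1 had no match, and Ptger2 had only a CCAAT box, a motif of 37.4% of windows. The Ptger2 window was poor in GC (37.7%), below the median of all windows (52.7%), whereas Ptgs2 (59.3%) and Ptges (60.0%) lay above it. These matches describe the letters of the windows, and no binding was measured.

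Ptgs2 encodes the inducible cyclooxygenase of the ovulatory follicle. Its level was 0.691 and 0.408 FPKM in the controls and 2.6 and 1.88 FPKM in the treated libraries. Both treated libraries were above both controls, and all 4 levels were low, near the middle of all listed genes in the controls (percentiles 49.4 and 45.1) and a little above it after treatment (62.7 and 58.9). The mean rose 4.07-fold, from 0.549 ± 0.2 to 2.24 ± 0.512 FPKM (SD, n = 2 each), with a log2 difference of 1.06 ± 0.17 (SE, adjusted p = 0.00408). The reads behind these values were 52 and 33 in the controls and 193 and 137 after treatment, a ratio per total of 4.12 with an exact 95% interval of 3.23 to 5.29 that covers counting error only.

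Ptgs1, the cyclooxygenase that many tissues express without stimulation, changed by about as much as Ptgs2. It measured 0.564 and 0.291 FPKM in the controls and 2.33 and 1.82 FPKM after HDACi 4b, from 36, 20, 147 and 113 reads. The groups did not overlap, and the mean rose 4.86-fold, from 0.428 ± 0.193 to 2.08 ± 0.361 FPKM (log2 difference 1.11 ± 0.16, adjusted p = 0.00286). The read ratio was 4.92 (exact 95% interval 3.68 to 6.69), which overlaps that of Ptgs2. Together the cyclooxygenases summed to 1.25 and 0.699 FPKM in the controls and 4.93 and 3.7 FPKM after treatment. Ptgs2 made up 55.1% and 58.3% of that sum in controls and 52.7% and 50.7% in treated libraries, so the sum rose with little shift between the enzymes. A predicted gene on the opposite strand (Gm43621) overlaps Ptgs1, and the sources used here do not say whether counting used strand.

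Ptges, the membrane synthase that works in concert with the inducible cyclooxygenase, rose from a higher level. It measured 29.9 and 30.9 FPKM in the controls and 87.3 and 80.4 FPKM after HDACi 4b. The controls were close to each other and both treated libraries were far above them, from the 92.4 and 92.7 percentiles of all listed genes to the 97.6 and 97.4 percentiles. The mean rose 2.76-fold, from 30.4 ± 0.721 to 83.8 ± 4.93 FPKM (log2 difference 1.43 ± 0.071, adjusted p = 0.000162), at percentile 95.8 of all genes tested. From 1933 and 2148 reads in the controls and 5567 and 5039 after treatment, the read ratio of 2.76 had an interval of 2.66 to 2.86. The call held in all 9 alternatives tried, with an adjusted p from 3.73e-06 to 0.00648. Gm13400, a gene on the same strand, overlaps Ptges and may share its reads.

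The other synthases of prostaglandin E2 moved little. Ptges3, also called p23 and better known as a cochaperone of HSP90, measured 77.0 and 69.1 FPKM in the controls and 96.1 and 90.9 FPKM after treatment. The groups did not overlap, and the mean rose 1.28-fold (log2 difference 0.35 ± 0.08, adjusted p = 0.0132). This call rested on both treated libraries, since the adjusted p was 0.1 without HDACi 4b replicate 1 and 0.0596 without HDACi 4b replicate 2. A processed pseudogene of Ptges3 exists and may share reads with it. Ptges2, a membrane-associated synthase, measured 6.42 and 6.74 FPKM in the controls and 5.61 and 5.49 FPKM after treatment, with a log2 difference of -0.21 ± 0.075 that did not pass the test (adjusted p = 0.0562).

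Among these synthases the share of Ptges in the summed FPKM was 26.4% and 29.0% in the controls and 46.2% and 45.5% after treatment. Ptges3 held 67.9% and 64.7% of the sum in controls and 50.8% and 51.4% in treated libraries. The sum itself was 113 and 107 FPKM in the controls and 189 and 177 FPKM after HDACi 4b. Ptges accounted for most of the increase in the sum. By reads, without division by gene length, the mean share of Ptges was 38.0% in controls and 58.3% after treatment.

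Ptgds, the lipocalin-type synthase of prostaglandin D2, went the other way. It measured 7.93 and 6.39 FPKM in the controls and 3.07 and 3.0 FPKM after HDACi 4b, from 215, 186, 82 and 79 reads. Both treated libraries were below both controls and close to each other. The mean fell 2.36-fold, from 7.16 ± 1.09 to 3.03 ± 0.0448 FPKM (log2 difference -1.01 ± 0.11, adjusted p = 0.00132), and the call held in all 9 alternatives.

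**Figure D2:**
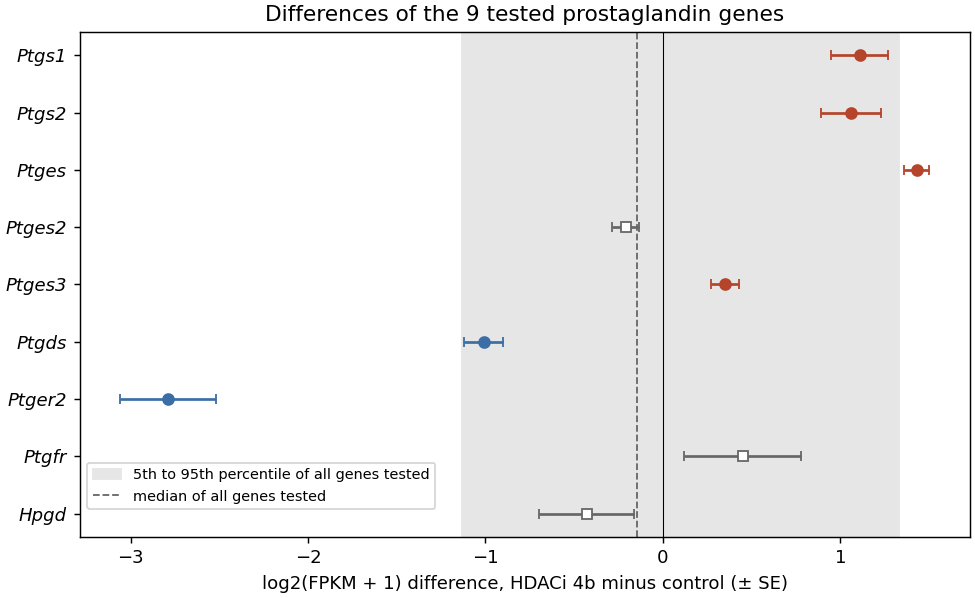
Difference in log2(FPKM + 1), HDACi 4b minus control, for the 9 prostaglandin genes tested, with the standard error from limma. Filled points passed an adjusted p of 0.05 (red higher, blue lower), open squares did not, the grey band is the 5th to 95th percentile of all genes tested and the dashed line is their median. Ptger2 at -2.79 lay far outside the band and Ptges at 1.43 just above it.

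Ptger2 encodes EP2, the receptor that raises cyclic AMP in response to prostaglandin E2 and that mice need for cumulus expansion. It measured 10.4 and 5.69 FPKM in the controls and 0.251 and 0.272 FPKM after HDACi 4b. The controls differed from each other 1.82-fold, yet both lay far above the treated libraries, which were nearly equal. The mean fell 30.6-fold, from 8.02 ± 3.3 to 0.262 ± 0.015 FPKM, with a log2(FPKM + 1) difference of -2.79 ± 0.27 (adjusted p = 0.00138). That placed Ptger2 at percentile 0.278 of all genes tested, and its rank among listed genes went from percentiles 79.6 and 71.1 to 40.2 and 40.5. Reads of Ptger2 are known only up to a common factor, and Gm17173 and Gm49364 overlap it on the opposite strand. The smallest whole reads that fit were 627 and 370 in the controls and 15 and 16 after treatment, a ratio of 30.3 with an exact 95% interval of 21.2 to 44.9, which a larger common factor would narrow. The call held in the 8 alternatives that could be run for this gene (adjusted p from 0.000472 to 0.0174).

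Ptger4 encodes EP4, the other receptor that couples prostaglandin E2 to cyclic AMP, and it lay on the opposite side. Its level was 0.165 and 0.162 FPKM in the controls and 0.705 and 0.622 FPKM after treatment, so it stayed under the 1 FPKM limit and was not part of the test. The groups did not overlap, with 18 and 19 reads in the controls against 76 and 66 reads after treatment. The read ratio was 4.07 (exact 95% interval 2.82 to 6.01). Without the limit on low genes its log2(FPKM + 1) difference was 0.52 (adjusted p = 0.0212), and limma-voom on recovered reads gave 1.99 (adjusted p = 0.000774). Ttc33 and Gm15937 overlap it on the opposite strand.

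Ptgfr, the receptor of prostaglandin F2α, was the only gene among the 9 tested whose groups overlapped. It measured 15.8 and 7.65 FPKM in the controls and 16.3 and 14.6 FPKM after HDACi 4b. Control replicate 2 stood low, and control replicate 1 fell between the treated libraries. Gm43618 overlaps Ptgfr on the opposite strand. The log2 difference was 0.45 ± 0.33 (adjusted p = 0.302). It depended on which control was kept, being 0.93 without control replicate 1 (adjusted p = 0.0035) and -0.03 without control replicate 2 (adjusted p = 0.792).

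The remaining prostanoid receptors were scarce. Ptger3, the EP3 receptor that lowers cyclic AMP, had 40 and 70 reads in the controls against 6 and 5 after treatment, and Tbxa2r, the thromboxane receptor, had 3 and 1 against 15 and 23. Both were named after their values were seen and neither reached 1 FPKM. With no limit on low genes, Ptger3 was lower by a log2(FPKM + 1) difference of -0.55 (adjusted p = 0.0342) and Tbxa2r higher by 0.6 (adjusted p = 0.0298). In limma-voom on recovered reads, which adds far less to low values, the log2 differences were -3.09 for Ptger3 (adjusted p = 0.00131) and 3.15 for Tbxa2r (adjusted p = 0.00448). Ptgir, the prostacyclin receptor, had 2 and 5 reads in the controls against 2 and 3 after treatment, and no difference was detectable at this depth.

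Over the 8 prostanoid receptors in the table, the summed level was 26.9 and 14.4 FPKM in the controls and 17.9 and 16.4 FPKM after treatment, so the groups overlapped in the total. What differed was its make-up. Ptger2 held 38.4% and 39.5% of the sum in the controls and 1.4% and 1.66% after HDACi 4b. Ptgfr held 58.7% and 53.2% in controls and 91.1% and 88.9% in treated libraries. Ptger4 held 0.611% and 1.12% in controls and 3.93% and 3.79% after treatment.

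**Figure D3:**
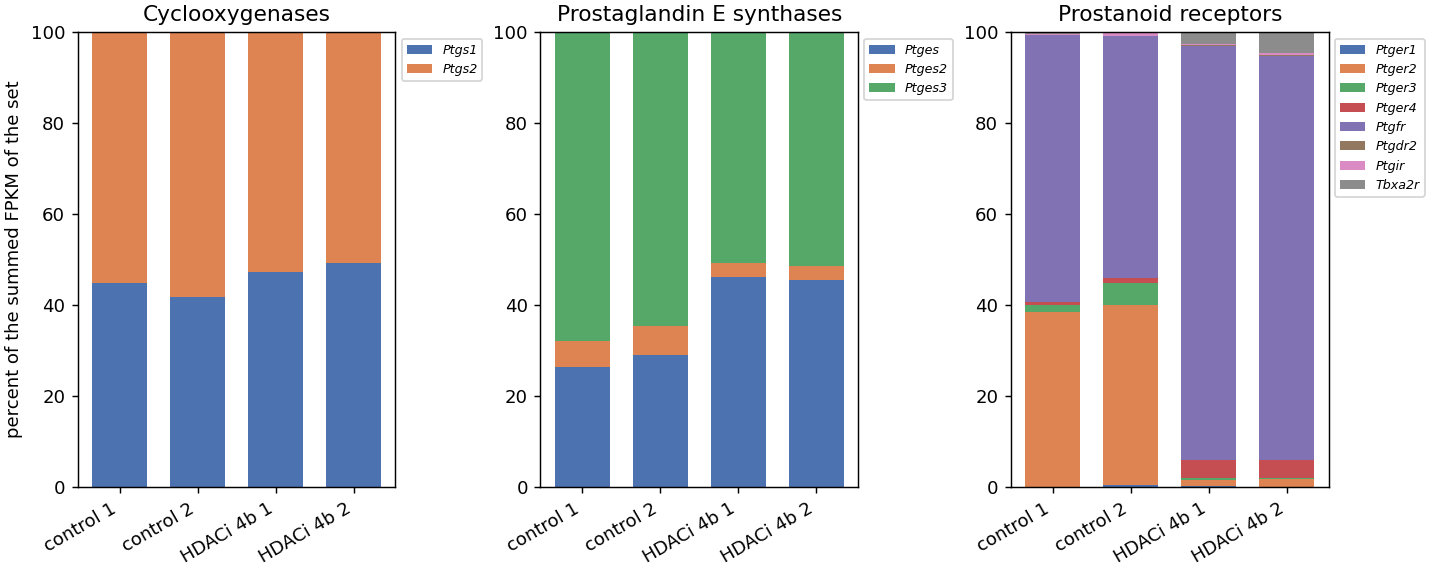
Percent of the summed FPKM held by each cyclooxygenase, each prostaglandin E synthase and each prostanoid receptor, as 1 stacked bar per library from 0 to 100%. The cyclooxygenase bars are alike across libraries, Ptges takes a larger part of its set after HDACi 4b (46.2% and 45.5%), and Ptger2 nearly disappears from the receptor bars (1.4% and 1.66%).

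Hpgd encodes the dehydrogenase that inactivates prostaglandins by oxidising a hydroxyl group. It measured 12.2 and 6.76 FPKM in the controls and 6.38 and 6.67 FPKM after treatment. Control replicate 1 stood high, while control replicate 2 was only just above the treated libraries. The log2 difference was -0.43 ± 0.27 (adjusted p = 0.228). Without control replicate 2 it was -0.81 (adjusted p = 0.00357) and without control replicate 1 it was -0.05 (adjusted p = 0.696), so the call depended on which control was kept. Gm45540, on the same strand, overlaps it.

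The controls differed from each other in several of these genes. Control replicate 1 was at least 1.5 times control replicate 2 for 5 of the 10 genes, against 4.94% of all genes tested. These were Ptgs1 (1.93), Ptgs2 (1.69), Ptger2 (1.82), Ptgfr (2.07) and Hpgd (1.81). The ratios of Ptgs1 (36 and 20 control reads) and Ptgs2 (52 and 33) rest on few reads and are less certain. No gene of the 10 had control replicate 2 at least 1.5 times control replicate 1, and none had the treated libraries that far apart. Markers of several cell types, GCs among them, also separated the controls. Inhbb measured 41.4 FPKM in control replicate 1 and 6.57 FPKM in control replicate 2, and Amh measured 2.11 and 0.712 FPKM. Kitl went the other way (13.2 and 22.1 FPKM), whereas Inha was alike in the controls (1220 and 1260 FPKM). The oocyte markers summed to 3.13 and 0.676 FPKM in control replicates 1 and 2 (2.56 and 4.27 FPKM in the treated libraries). In the controls most of it was Gdf9 (2.85 and 0.53 FPKM). Bmp15 had 9 and 1 reads there, Zp1 2 and 0, and Zp3 the other way 1 and 3. Both treated libraries had more reads of Bmp15, Zp2 and Zp3 than both controls. The theca and stroma markers summed to 29.8 and 63 FPKM in the controls (11.5 and 19.3 FPKM in the treated libraries), and the smooth muscle markers to 166 and 251 FPKM. The part of these marker differences in the values of the prostaglandin genes was not tested.

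**Figure D4:**
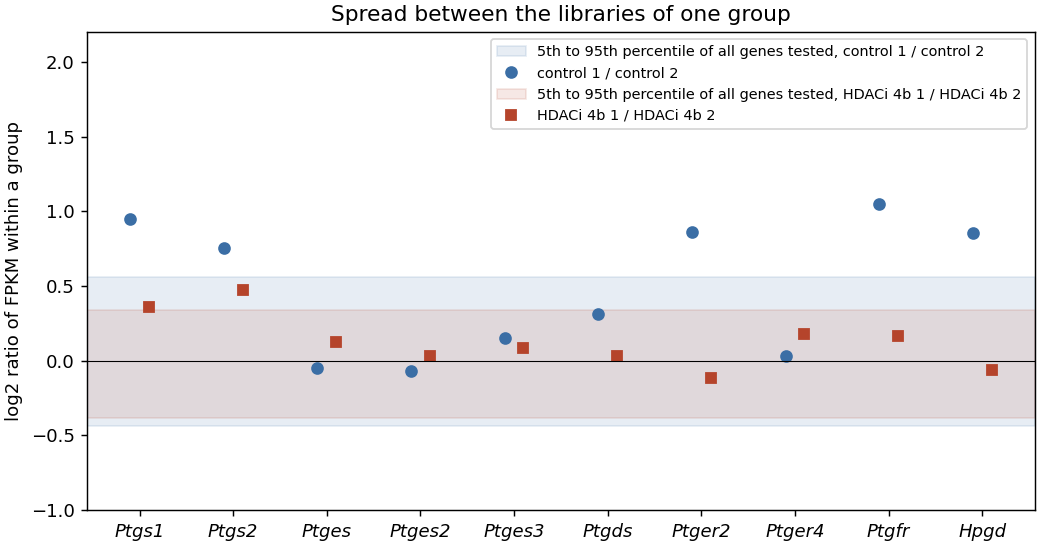
log2 ratio of FPKM between the libraries of 1 group for each prostaglandin gene, controls as circles and HDACi 4b libraries as squares, with bands from the 5th to the 95th percentile of all genes tested. Circles of Ptgs1, Ptgs2, Ptger2, Ptgfr and Hpgd lie above the control band, whose upper edge is 0.563, whereas of the squares only Ptgs1 and Ptgs2 pass the upper edge of theirs, 0.339.

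Of the genes around these 10, the list of those that free arachidonate or hold it in membranes had 21 in the table and 7 tested. Of these 4 rose, none fell and 3 did not pass, against 22.4% higher and 38.1% lower over all genes tested, and their median log2 difference was 0.77 against -0.15. Pla2g3, 1 of the 4, entered the test only through the treated libraries. Acsl4, which couples arachidonate to coenzyme A, measured 28.2 and 25.1 FPKM in the controls and 162 and 139 FPKM after HDACi 4b (log2 difference 2.45 ± 0.1, adjusted p = 0.000117). Lpcat3, which places such fatty acids into phospholipids, measured 43.8 and 44.1 FPKM in controls and 183 and 163 FPKM after treatment (log2 difference 1.95 ± 0.079, adjusted p = 0.000114). Acsl4 and Lpcat3 thus rose without overlap of the groups, and both store arachidonate rather than free it.

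Pla2g3, a secreted phospholipase, measured 0.311 and 0.169 FPKM in the controls and 2.51 and 2.1 FPKM after treatment (log2 difference 1.41 ± 0.14, adjusted p = 0.00085). Pla2g4a, the cytosolic phospholipase that frees most arachidonate for cyclooxygenases, was named after its values were seen. It measured 5.6 and 3.94 FPKM in the controls and 6.7 and 6.1 FPKM after treatment. The groups did not overlap, but the log2 difference of 0.37 ± 0.15 did not pass (adjusted p = 0.0901), although it did without control replicate 1 (0.58, adjusted p = 0.0123) and under median-ratio scaling (0.51, adjusted p = 0.0399).

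Of the other terminal synthases 6 of 9 were tested, and 4 rose and 2 fell, beside the 22.4% and 38.1% of all genes tested. Ptgis, the prostacyclin synthase, measured 17.0 and 14.1 FPKM in the controls and 6.01 and 8.23 FPKM after treatment (log2 difference -1.04 ± 0.16, adjusted p = 0.00528). Akr1c18, which in mice inactivates progesterone and can make prostaglandin F2α, fell from 41.9 and 31.1 FPKM to 13.8 and 12.2 FPKM (log2 difference -1.41 ± 0.16, adjusted p = 0.00193). Akr1b3, the aldose reductase with prostaglandin F synthase activity in mice, rose from 15.6 and 17.8 FPKM to 36.6 and 36.8 FPKM (log2 difference 1.1 ± 0.082, adjusted p = 0.000419). Enzymes credited with making prostaglandin F2α thus changed in both directions. Fam213b and Cbr1 of this list also rose (log2 differences 0.84 and 0.8). Akr1b8, a related reductase better known for its action on aldehydes, rose from 19.2 and 23.5 FPKM to 93.8 and 96.4 FPKM (log2 difference 2.11 ± 0.11, adjusted p = 0.000176).

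Beyond the first oxidation step, 4 genes of breakdown were tested, of which 2 rose, 1 fell and 1 did not pass (22.4% and 38.1% of all genes tested rose and fell). Ptgr1, which reduces the product of Hpgd and also inactivates leukotriene B4, measured 9.22 and 14.0 FPKM in the controls and 60.0 and 61.0 FPKM after HDACi 4b (log2 difference 2.31 ± 0.19, adjusted p = 0.00109). Its groups lay far apart, in contrast to those of Hpgd. Of 3 transporters, 1 rose, 1 fell and 1 did not pass, with the same shares over all genes. The rise was Abcc4 (log2 difference 0.95 ± 0.086, adjusted p = 0.000705 in limma), and Slco2a1 did not pass. Slco3a1, a carrier of prostaglandins, measured 16.7 and 7.32 FPKM in the controls and 4.18 and 3.14 FPKM after treatment (log2 difference -1.39 ± 0.39, adjusted p = 0.0356). Its call was lost without HDACi 4b replicate 1 (adjusted p = 0.0926), without HDACi 4b replicate 2 (0.137), with no limit on low genes (0.0686) and with limma-voom (0.0687).

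Downstream of EP2 and EP4, 6 of 8 coupling genes were tested, and 3 rose, 2 fell and 1 did not pass, against 22.4% higher and 38.1% lower over all genes tested. Prkaca, the catalytic subunit of protein kinase A, measured 44.0 and 44.0 FPKM in the controls and 102 and 92.8 FPKM after treatment (log2 difference 1.12 ± 0.071, adjusted p = 0.000277). The other rises, Adcy3 (0.47) and Adcy9 (0.34), were smaller, and the falls were Adcy6 (-0.75) and Creb1 (-0.48). Gnas, under the limit and not tested, had 178 and 188 reads in the controls and 79 and 69 after treatment. Its level was 0.968 and 0.951 FPKM in the controls and 0.436 and 0.387 FPKM after treatment. The read ratio of Gnas was 0.429 (exact 95% interval 0.352 to 0.52, counting error only). Overlap of other genes with Gnas was not examined, so its level and ratio are uncertain. Ptgfrn, a membrane protein that binds the prostaglandin F2α receptor and was the only tested gene of its list, had a log2 difference of -0.08 ± 0.08 (adjusted p = 0.402) that turned to 0.07 under median-ratio scaling. Of the lipoxygenase branch only Lta4h, the leukotriene A4 hydrolase, was tested. Its log2 difference was 0.32 ± 0.066 (adjusted p = 0.0096), and the call was lost without HDACi 4b replicate 1 (0.0523) and without HDACi 4b replicate 2 (0.0685).

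All 9 genes of factors known to act at the Ptgs2 promoter were tested, and 1 rose, 7 fell and 1 did not pass, against 22.4% higher and 38.1% lower over all genes tested (median log2 difference -0.4 against -0.15). Several of the falls were small, such as Usf2 at -0.22 and Usf1 at -0.26, and Cebpd (1.55 FPKM in controls and 0.68 FPKM after treatment) entered the test only through the controls. Cebpb, which is induced in GCs by LH, measured 5.18 and 4.67 FPKM in the controls and 28.5 and 21.5 FPKM after HDACi 4b (log2 difference 2.12 ± 0.14, adjusted p = 0.000434). Nfkb1, a subunit of NF-κB, fell from 4.84 and 5.15 FPKM to 1.61 and 1.94 FPKM (log2 difference -1.11 ± 0.1, adjusted p = 0.000766). These values are transcript levels, and binding of the factors was not measured. Over the 8 lists together, 66 genes were in the table and 35 were tested, of which 15 rose and 12 fell. Under median-ratio scaling the split was 18 and 9, and over all genes it went from 2700 higher and 4597 lower to 3541 higher and 3296 lower.

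**Figure D5:**
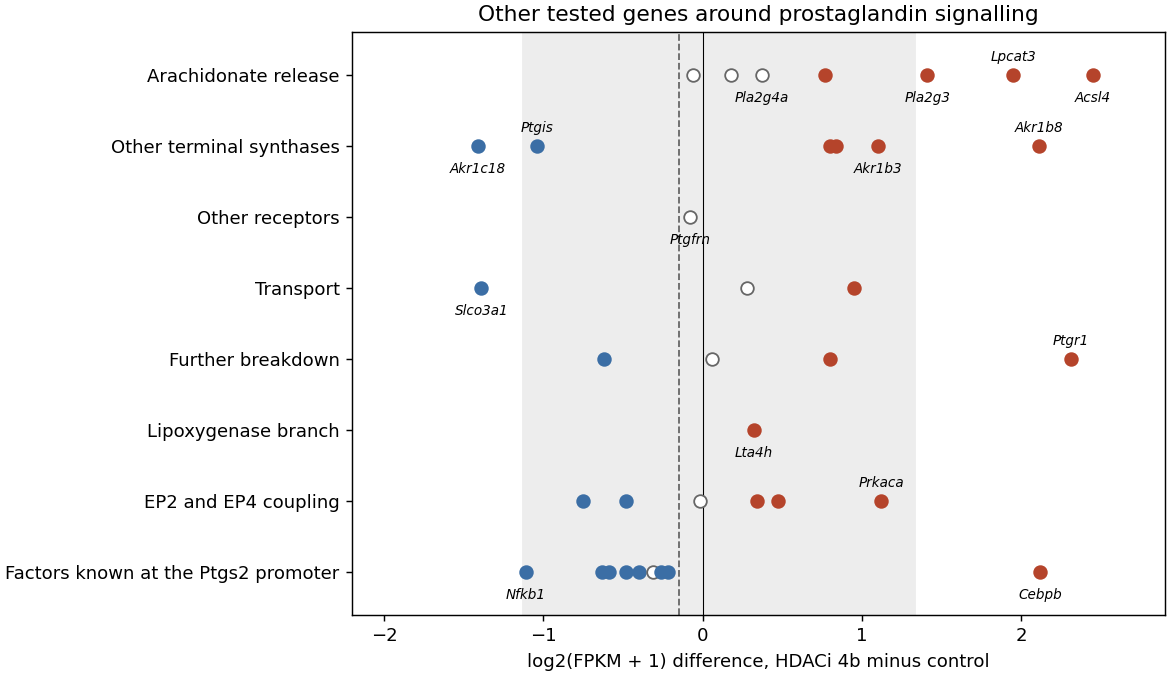
Difference in log2(FPKM + 1), HDACi 4b minus control, for each tested gene of 8 lists around prostaglandin signalling, 1 row per list (red higher and blue lower at an adjusted p of 0.05, open not passed). The grey band is the 5th to 95th percentile of all genes tested and the dashed line their median, and Acsl4 at 2.45 is the largest increase shown while Akr1c18 at -1.41 is the largest decrease.

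Cells other than GCs express several of these genes. Macrophage and leukocyte markers summed to 66.8 and 104 FPKM in the controls and 56.4 and 47.7 FPKM after treatment, nearly all of it Lyz2, which fell, and Cd68, which rose. The lineage markers Adgre1, Csf1r and Ptprc were lower without overlap. Their mean levels in controls and treated libraries were 1.64 and 0.335 FPKM (Adgre1), 0.912 and 0.216 FPKM (Csf1r) and 0.0766 and 0.0153 FPKM (Ptprc). None reached a mean of 1 FPKM over all the libraries, so none was tested. Itgam overlapped between the groups. Theca and stroma markers summed to 29.8 and 63 FPKM in the controls and 11.5 and 19.3 FPKM after treatment. Most of it was Col1a1 and Col1a2, and both fell (log2 difference -1.4, adjusted p = 0.0456, and -1.56, adjusted p = 0.0393). Of the markers not tested, Dcn and Lum were lower without overlap. Pdgfra was higher without overlap, with means of 0.562 FPKM in controls and 0.729 FPKM after treatment. The defining steroid enzyme of theca cells, Cyp17a1, was at or near 0 in all libraries. The mast cell and platelet markers summed to 5.17 and 7.09 FPKM in the controls and 3.03 and 4.0 FPKM after treatment. Most of it was Pf4, which fell (-0.78, adjusted p = 0.0233). Under the limit, 2 others moved in opposite directions without overlap of the groups. Kit was lower (mean 0.548 FPKM in controls and 0.171 FPKM after treatment) and Itga2b was higher (0.515 and 0.839 FPKM). Endothelial markers summed to 1.1 to 1.55 FPKM over the 4 libraries, and none was tested. Kdr (25 and 31 reads in the controls, 14 and 13 after treatment) was lower without overlap. So was Tek (16 and 17 against 4 and 4 reads), whereas Pecam1, Cdh5 and Vwf overlapped. No marker of these lists was at 0 in all libraries. The part of other cell types in the changes of Ptgs1, Ptgs2, Ptgds and Ptgis was not tested.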

How the data were processed

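RNA-seq libraries of control (n = 2) and HDACi 4b-treated (n = 2) GCs were analysed. Groups and replicate numbers came from the sample titles. Protocol notes attached to the samples describe tamoxifen-treated mice and whole ovaries, while titles, cell type labels and the series design describe cultured wild-type GCs, which was followed. Alignment with Bowtie 0.12.2 and the build mm8 are named in the submitters' processing notes. The counter and annotation were not given in the sources used here.

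As deposited by the authors, values are FPKM in 1 table that names no unit. The unit was read from the values: 23877 of 25239 genes (94.6%) matched 1 GENCODE M21 symbol, and for 21606 of these (90.5%) FPKM multiplied by union exon length and by 1 constant per library came to whole reads within 0.001. Coordinates printed are of RefSeq on GRCm38.p6, not of the authors' build.

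Differences were tested in limma 3.58.1 (R 4.3.3) on log2(FPKM + 1) for the 12054 genes whose mean reached 1 FPKM. The fit had group as its only term, with the trend and robust options, and two-sided p-values were adjusted by Benjamini-Hochberg over all genes tested, with a threshold of 0.05. Multiples are ratios of mean FPKM. The log2 scale understates changes of low genes. With 2 libraries a group, exact permutation p-values cannot go below 0.333, so none was used. Read ratios carry exact conditional binomial intervals at 95% (scipy 1.17.1). The code was tested on simulated data.

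The 10 genes, the pathway lists and the marker lists were chosen with earlier results of these data known. All 10 were named. Of each pathway list, genes past the threshold with an absolute log2 difference of at least 1 were named. Otherwise the 2 tested genes with the smallest p were named. Some further genes of the lists were named after their values were seen. Alternatives were a pseudocount of 0.1 FPKM, no limit on low genes, a replicate block, median-ratio scaling, limma-voom on recovered reads, each library left out, and shares by reads.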

Additional observations from a re-analysis of the deposited data

How the results depend on the processing

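Over 80 values of the tested prostaglandin genes under the alternatives, 75 kept their direction and side of the threshold, 2 lost the call, 2 gained it and 1 turned direction. The calls of Ptgs1, Ptgs2, Ptges, Ptger2 and Ptgds held in every alternative run for them, Ptger2 not having been run in limma-voom, for which its reads could not be recovered at the annotated length. Their log2 differences depended on what was added to low values: with a pseudocount of 0.1 FPKM they were 2.09 for Ptgs1, 1.87 for Ptgs2 and -4.43 for Ptger2 (1.11, 1.06 and -2.79 with 1 FPKM), above 1.46 for Ptges in size, and limma-voom gave 2.34 for Ptgs1 and 2.06 for Ptgs2. Without Ptger2, limma-voom called 1 gene lower, against 2. Leaving out 1 library gave 3 to 5 prostaglandin genes called higher and 2 to 3 called lower. The log2 difference of Ptgfr ran from -0.03 without control replicate 2 to 0.93 without control replicate 1, with 0.45 from all libraries. Over the pathway lists, leaving out 1 library gave 12 to 17 called higher and 7 to 12 called lower, and over all genes 1775 to 2559 higher and 2796 to 4181 lower, the fewest without HDACi 4b replicate 1. Ptgfrn turned from -0.08 to 0.07 under median-ratio scaling. Shares by reads, which weight long genes more by construction, put Ptgs2 at 60.7% of cyclooxygenases in controls and 55.8% after treatment (56.7% and 51.7% by FPKM), and Ptges at 38.0% and 58.3% of prostaglandin E synthases (27.7% and 45.8%).

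With the replicate block 7315 genes were called, against 7297 without it, 7037 in both, and no call of a prostaglandin gene differed. Of the named pathway genes, Pla2g4a gained its call under the block (adjusted p = 0.0307 in limma). Deviations of same-numbered libraries correlated at 0.0877, with only 2 pairs, so the numbers were not taken to pair them.

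With 2 libraries a group, the spread of each gene rests on few values, and low reads limit Ptgs1, Ptgs2, Ptger4 and the scarce receptors.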

Other observations

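Alox15, an arachidonate lipoxygenase that acts on the same substrate as the cyclooxygenases, was noticed after its values were seen. It had 0 and 2 reads in the controls and 53 and 45 reads after HDACi 4b, or 0.0 and 0.0461 FPKM against 1.33 and 1.15 FPKM. The mean stayed under the limit of 1 FPKM used for the test. The read ratio was 51.9 with an exact 95% interval of 14.0 to 435, which covers counting error only. With no limit on low genes, limma gave a log2(FPKM + 1) difference of 1.13 (adjusted p = 0.00492). Tbxas1, the thromboxane synthase, had 10 and 33 reads in the controls against 3 and 5 after treatment, and its groups did not overlap. Of the other terminal synthases under the limit, Hpgds was also lower without overlap (22 and 16 reads against 1 and 2). Akr1b7 was higher without overlap (2 and 0 reads against 3 and 9).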
